A study of Saccharomyces cerevisiae and Saccharomyces pastorianus with 78 samples.

Results

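The genes described here encode the nuclear subunits of the mitochondrial respiratory chain and ATP synthase of *Saccharomyces cerevisiae*, with the transcription factor gene HAP4. They are 36 of the 7127 features of the deposited count table, taken by systematic name. The list was drawn up with earlier results of these data known. They comprise 2 cytochrome c genes, 9 subunit genes of the bc1 complex, 9 of cytochrome oxidase, 3 NADH dehydrogenase genes, 5 of the F1 part of ATP synthase, 7 of its stalk and membrane part, and HAP4 itself. The samples were 39 poly(A) RNA libraries of BY4741, a haploid MATa laboratory strain, grown in YPD with 2% glucose at 25 °C to an OD595 of about 0.1. Cells treated with 7% EtOH (ethanol) and cells treated with 0.01% SDS, an anionic detergent, were each sampled 6 times, the earliest at 0.5 h, then at 1, 2, 4 and 8 h, and last at 20 h. Control cells were sampled just before the addition. Every one of the 13 groups held 3 biological replicates. These control cells belonged to the aliquot that EtOH was then added to. No control was taken of the SDS aliquot, nor of untreated cells at later times, so stress and time in culture cannot be told apart. Both stresses were compared with the same 3 control libraries. A second table of the series, from *S. pastorianus*, was not used here.

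Respiratory electrons enter the yeast inner membrane through single-subunit NADH dehydrogenases, succinate dehydrogenase and other flavoproteins, since this yeast lacks a proton-pumping complex I. Ubiquinone passes them to the bc1 complex, cytochrome c passes them on to cytochrome oxidase, and the proton gradient drives ATP synthase. On glucose most of these genes are repressed, and the Hap2/3/4/5 complex, of which Hap4 is the activating and glucose-repressed subunit, activates many of them through CCAAT-type sites.

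Matches to the longer Hap2/3/4/5 site are shown because 17 of the 36 genes hold one. In the 500 bases before the start codon, searched on both strands, CCAAT was found in 32 of the 36 genes (88.9%), against 3746 of 6000 windows of that length (62.4%). The longer Hap2/3/4/5 form TNATTGGT, which contains CCAAT on the other strand, was found in these 17 (47.2%), against 516 of 6000 (8.6%). The Hap1 motif was found in 1 gene, QCR6 (2.8%, against 0.3%), the Rox1 core ATTGTT in 22 (61.1%, against 48.9%), the stress response element CCCCT in 16 (44.4%, against 34.1%) and the Mig1 core, CCCCAC or CCCCGC, in 9 (25.0%, against 13.6%). A match says only that these letters are present, and a window can run into the neighbouring gene. Below are matches from HAP4 and from 1 or 2 genes of each complex and of the NADH dehydrogenases (neither cytochrome c gene holds one), read 5′ to 3′ on the gene's strand from RefSeq build R64, with the TNATTGGT match in capitals (as its reverse complement in all but HAP4 and COX6).
HAP4 (chrXI:232121-232150, + strand): tccacacatatTTATTGGTctcctagtaca
QCR7 (chrIV:1496712-1496741, - strand): atcttgttttgACCAATCAggagcgacgcg
RIP1 (chrV:107001-107030, + strand): ctccataacggACCAATCAgcgttttgcgc
COX6 (chrVIII:209477-209506, + strand): gaaaagggaccTAATTGGTccggtcaaagc
COX5B (chrIX:155138-155167, + strand): ttaaacaatagACCAATTAtttcaatttaa
NDI1 (chrXIII:30017-30046, - strand): tattcattcggACCAATCAtatgaaggcat
NDE1 (chrXIII:556560-556589, - strand): tattctggtaaACCAATTAaagagagaaaa
ATP3 (chrII:315368-315397, + strand): cgtgatggagaACCAATGAgcggcgagtaa
ATP4 (chrXVI:408916-408945, - strand): atcaatattgaACCAATCAcgacgcttttt

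The libraries held 3105804 to 21167236 counts (median 7706767), and a gene among the 36 had 6 to 11597 counts per library. The lowest and the highest total both belonged to EtOH 8 h, to its replicates 3 and 2. All 36 passed the filter on low counts, which kept 6101 features. Levels are given as CPM, counts scaled by library size with a TMM correction for library composition, and changes as log2 fold changes with their standard error (SE). "Rose" and "fell" mean an adjusted p under 0.05 in edgeR's quasi-likelihood test with Benjamini-Hochberg adjustment over all genes tested. LEU2, URA3 and MET17, which BY4741 lacks, were at 0 counts throughout. In the smallest library that is a limit of 0.966 CPM. Scaled by library size alone, without TMM, the a-type genes MFA1, MFA2 and STE2 had at least 10.2, 19.1 and 141 CPM in every library. On that scale the alpha-type genes reached at most 1.93 CPM (MFALPHA1), 14.0 CPM (MFALPHA2) and 11.4 CPM (STE3). The lowest MFA1 level thus lay below the highest of MFALPHA2 and of STE3. Replicates correlated at 0.973 or more outside EtOH 20 h, where the correlation was 0.943 to 0.987, and replicate 3 of EtOH 20 h lay furthest from its group. Results that rest on it are given with and without it. The 7 mitochondrially encoded genes were nearly absent from these poly(A) libraries. COX1 alone among them passed the filter (median 1.05 CPM, also without TMM).

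In the control the F1 subunit gene ATP2 was the most abundant of the 36 per kilobase of coding sequence, at 449 ± 12.6 CPM per kb (SD, n = 3). The other catalytic-core gene ATP1 stood at 243 ± 6.09 and the stalk gene ATP4 at 212 ± 9.14 CPM per kb. The bc1 gene QCR6, for the acidic hinge subunit, stood at 201 ± 31.8 CPM per kb and HAP4 at 49 ± 7.65 CPM per kb. The lowest were the alternative isoforms CYC7, at 14.9 ± 6.5, and NDE2, at 5.12 ± 1.25 CPM per kb. The 36 genes together took 0.29 ± 0.005% of control counts.

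**Figure D1:**
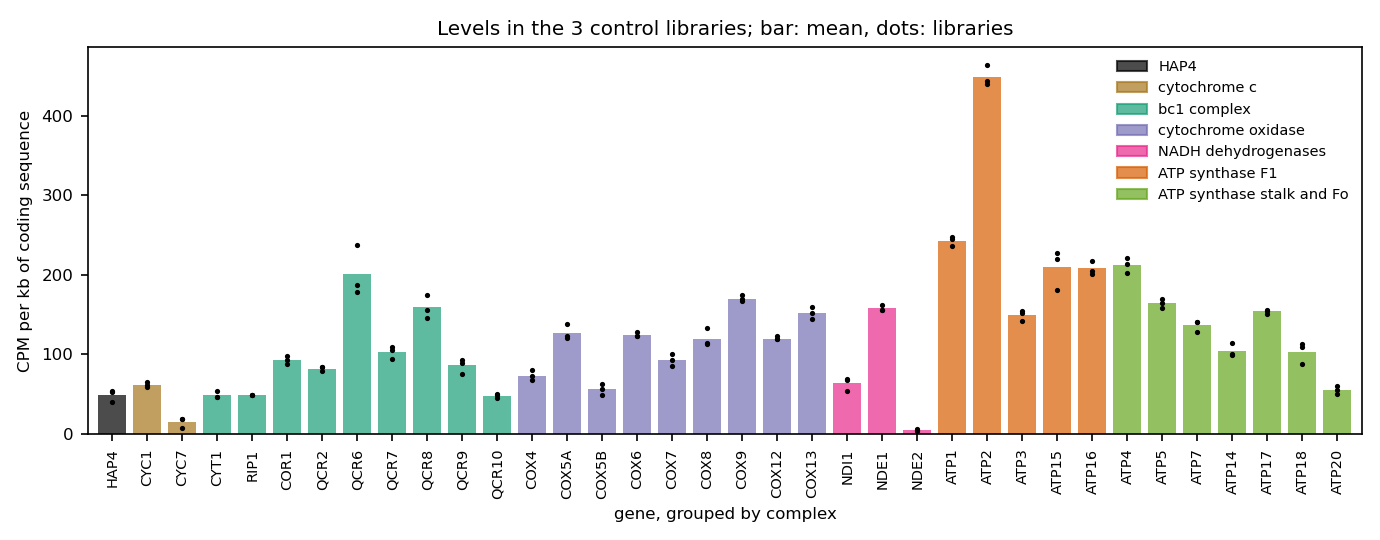
Mean level of each gene in the 3 control libraries, in CPM per kb of coding sequence, with the single libraries as dots. ATP2 was the highest at 449 CPM per kb and NDE2 the lowest at 5.12.

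Most of these genes rose at every SDS time, while 7 to 22 of the 36 passed the test at each EtOH time, all as falls at 0.5 h and in both directions later. In SDS, 30 of 36 rose and 2 fell at 0.5 h, with 30.6% of all genes tested rising and 28.8% falling at that time. The counts were 30 and 1 at 1 h (all genes 24.6% and 24.5%), 30 and 2 at 2 h (24.4% and 21.8%), 29 and 2 at 4 h (25.6% and 26.8%), 24 and 3 at 8 h (19.5% and 16.9%), and 30 and 1 at 20 h (18.6% and 16.1%). The median log2 change of the 36 was 0.61, 0.59, 0.63, 0.54, 0.36 and 0.62 at the 6 times, against -0.01 to 0.02 for all genes. The libraries are bulk RNA, in which a change in every cell and a change in part of the culture cannot be told apart. The rises were of moderate size. In order of time 5, 6, 4, 3, 1 and 1 of them were at least 2-fold, while 8.49%, 5.79%, 5.80%, 7.69%, 4.11% and 2.7% of all genes tested rose that far. Of the 36, 21 rose at all 6 SDS times and a further 6 at 5 of them, and HAP4 was the one gene that fell at all 6. With library totals alone the median of all genes shifted by 0.12 to 0.19 at the first 4 SDS times, and 34, 32, 31 and 30 genes rose and 2, 0, 1 and 1 fell. The share of library counts taken by the 36 was 0.46 ± 0.012% at 0.5 h of SDS, 0.34 ± 0.008% at 8 h and 0.39 ± 0.016% at 20 h (SD, n = 3 each).

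In EtOH, 0 rose and 7 fell at 0.5 h (all genes 6.52% and 7.69%), 2 and 6 at 1 h (7.24% and 7.95%), 6 and 5 at 2 h (10.7% and 12.3%), and 6 and 10 at 4 h (17.7% and 20.5%). At 8 h, 10 rose and 12 fell (26% and 27.9%), and at 20 h 16 rose and 3 fell (30.3% and 28.5%). The median of the 36 was 0.01, 0.00, 0.00, -0.09, -0.10 and 0.23. Over the course 17 genes rose at some time, 16 fell at some time, and COR1 and COX5B did both. The 5 genes that passed at no EtOH time were QCR8, COX8, COX12, ATP16 and ATP20. Of these, COX8 and ATP16 rose at all 6 SDS times. Leaving out single libraries lowered the counts at the early times and also at 4 and 8 h. Whichever of the 6 libraries compared was left out, 0 to 1 genes rose and 4 to 6 fell at 1 h, and 2 to 3 rose and 4 to 6 fell at 2 h. Likewise 5 to 6 rose and 7 to 9 fell at 4 h (13 to 15 in all), and 7 to 10 rose and 10 to 12 fell at 8 h (17 to 20 in all). At 1 h 4 to 5 genes passed, in place of 8, without control replicate 1, 2 or 3 or EtOH replicate 3, and at 2 h 6 passed, in place of 11, without EtOH replicate 3. The late EtOH counts depend on scaling. With library totals alone, the median of all genes shifted to 0.36 at 8 h and 0.29 at 20 h, and 18 rose and 3 fell at 8 h and 24 rose and 2 fell at 20 h. Without replicate 3 of EtOH 20 h, 13 rose and 5 fell at 20 h.

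**Figure D2:**
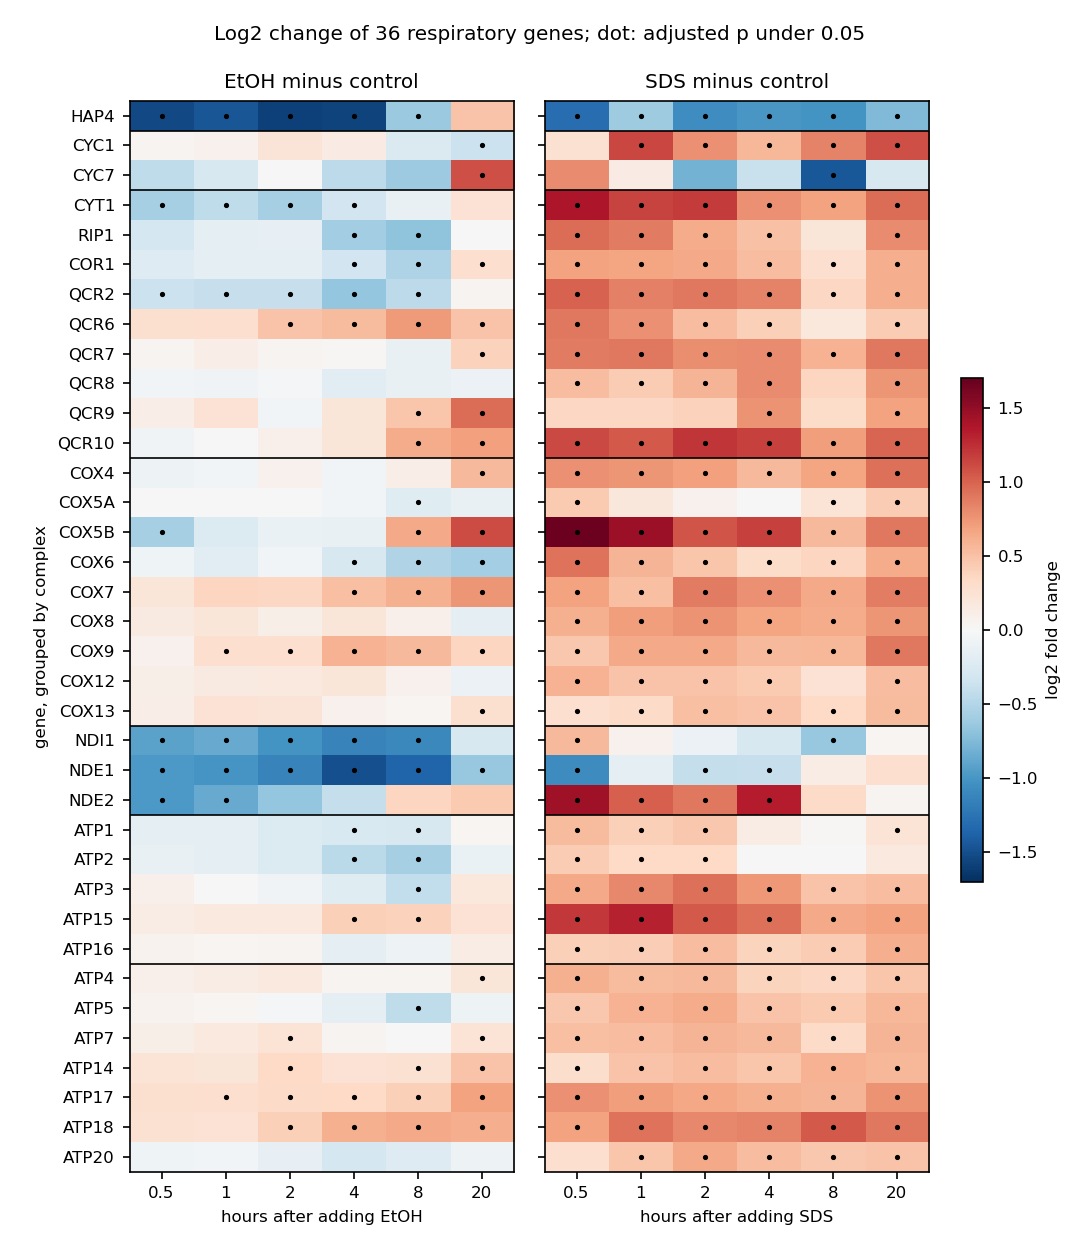
Log2 change against the control of each of the 36 genes (rows, by complex) at 6 times of EtOH (left) and SDS (right), with a dot where the adjusted p was under 0.05. SDS columns hold 24 to 30 rises, and EtOH columns hold 0 to 16 under TMM scaling (10 at 8 h, where library totals alone gave 18).

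HAP4 (YKL109W, chromosome XI, 232227 to 233891, build R64) fell at all 6 SDS times and at the first 5 EtOH times. It had 32.2, 27 and 25.6 CPM at 0.5 h of EtOH, 31.9, 33.5 and 23.7 at 1 h, 26.3, 27.2 and 28 at 2 h, 27.4, 29.2 and 25.7 at 4 h, 61.2, 53.9 and 40.5 at 8 h, and 125, 108 and 109 at 20 h. It had 41.3, 34.8 and 23.9 CPM at 0.5 h of SDS, 92.2, 40.9 and 28.4 at 1 h, 46.2, 34.6 and 37 at 2 h, 47, 40.9 and 34.9 at 4 h, 36.3, 41.8 and 43.3 at 8 h, and 60.3, 50.4 and 34.8 at 20 h. The control libraries had 90.5, 67 and 87.3 CPM. Every EtOH library from 0.5 to 8 h lay below every control, and every EtOH 20 h library above. In SDS all libraries lay below the controls except at 1 h, where replicate 1 stood above them. The log2 changes in EtOH were -1.53, -1.46, -1.59, -1.57, -0.63 and 0.48, and the last did not pass (adjusted p = 0.082, edgeR). In SDS they were -1.29, -0.61, -1.05, -0.99, -1.01 and -0.75, each with an SE of 0.25. The 1 h SDS fall did not pass with library totals alone (-0.47), without the low-count filter (-0.56) or in a fit of the 6 compared libraries alone (-0.59). It was also lost without control replicate 1 or 3 or SDS replicate 2 or 3 (-0.30 to -0.56). The 20 h SDS fall was lost without control replicate 1 or 3 or SDS replicate 3 (-0.56 to -0.70), and the 8 h EtOH fall with library totals alone (-0.28) and without any of 4 single libraries (-0.51 to -0.66).

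The other subunits of the Hap complex and the heme and oxygen regulators HAP1 and ROX1 changed in both directions. HAP1, which carries a transposon insertion in this strain background, fell at the first 5 EtOH times, by 0.28, 0.27, 0.36, 0.38 and 0.28. HAP5, a DNA-binding subunit, averaged 44.8 ± 3.56 CPM at 8 h of EtOH and 26.4 ± 2.41 CPM in the control (SD, n = 3 each; log2 change 0.75, SE 0.12). HAP2, another DNA-binding subunit, averaged 19.0 ± 1.47 CPM at that time and 29.1 ± 3.87 CPM in the control (-0.63, SE 0.17). Of the 5 genes in this list (HAP1, HAP2, HAP3, HAP5, ROX1), HAP5 and HAP3 rose and HAP2 and HAP1 fell at 8 h of EtOH (26% and 27.9% of all genes), the time with most calls, and 0 to 3 rose and 0 to 1 fell in SDS.

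Cytochrome c is encoded by CYC1 (YJR048W) for the aerobic isoform and CYC7 (YEL039C) for the minor one. CYC1 had 20.5, 18.6 and 24.2 CPM at 0.5 h of EtOH, 20.7, 20.6 and 23.2 at 1 h, 23.9, 24.5 and 23.3 at 2 h, 21.5, 26.4 and 20 at 4 h, 12.9, 18.1 and 22.2 at 8 h, and 18.9, 14.8 and 14.2 at 20 h. It had 20.9, 24.5 and 28.4 CPM at 0.5 h of SDS, 46.8, 41.5 and 46.5 at 1 h, 41.5, 31.9 and 31.8 at 2 h, 33.8, 28.7 and 28.5 at 4 h, 37, 35.9 and 37 at 8 h, and 46.5, 42 and 42.3 at 20 h. The control had 19.5, 20.4 and 21.6 CPM. All SDS libraries from 1 h on lay above all controls and all EtOH libraries. CYC1 rose at the last 5 SDS times by 1.13, 0.78, 0.57, 0.84 and 1.09 (SE 0.14), and the 0.5 h value of 0.26 did not pass. In EtOH it fell at 20 h alone, by 0.36, a call lost with library totals alone, without the low-count filter and without any of 4 single libraries (-0.11 to -0.36).
CYC7 was the lowest gene of the chain but NDE2 per kilobase. It had 4.13, 3.29 and 4.01 CPM at 0.5 h of EtOH, 6.04, 3.36 and 3.27 at 1 h, 6.5, 4.66 and 4.38 at 2 h, 4.35, 2.98 and 3.94 at 4 h, 4.02, 3.55 and 1.67 at 8 h, and 3.49, 9.02 and 20.5 at 20 h. It had 9.86, 9.43 and 7.63 CPM at 0.5 h of SDS, 7.58, 5.41 and 4.17 at 1 h, 2.41, 3.86 and 2.54 at 2 h, 4.19, 3.71 and 3.92 at 4 h, 1.82, 2.59 and 1.32 at 8 h, and 4.31, 4.03 and 4.46 at 20 h. The control had 6.5, 6.25 and 2.53 CPM. All groups overlapped it except SDS 0.5 h, whose libraries all lay above and whose change of 0.80 did not pass. The rise at 20 h of EtOH (1.10, SE 0.37, adjusted p = 0.0107, edgeR) rests on replicate 3, and without it the change was 0.28 and did not pass. It was also lost without control replicate 3 (0.79) and in a fit of those 6 libraries alone (1.14). The fall at 8 h of SDS (-1.44, SE 0.45, adjusted p = 0.0123, edgeR) was lost without control replicate 1 or 2 or SDS replicate 3 (-1.23 to -1.28).

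The bc1 complex rose in SDS nearly as a whole. Of its 9 genes, 8, 8, 8, 9, 5 and 9 rose at the 6 SDS times and 0 fell, with medians of 0.89, 0.86, 0.65, 0.78, 0.35 and 0.75. The 5 genes that rose at every time were CYT1 (cytochrome c1), the core subunit genes COR1 and QCR2, and the small subunit genes QCR7 and QCR10. RIP1 (the Rieske iron-sulfur protein), QCR6 and QCR8 rose at all times but 8 h, and QCR9 at 4 and 20 h. QCR8 lost its 0.5 h call without control replicate 3 (0.46). Its 1 h call was lost with a replicate block (0.43) and without control replicate 2 or 3 or SDS replicate 1 or 2 (0.37 to 0.42). QCR6 lost its 4 and 20 h calls without control replicate 1 or 3 or SDS replicate 1 of that time (0.32 to 0.39). The 8 h call of QCR2 was lost without SDS replicate 2 (0.31).
CYT1 (YOR065W) had the largest change. It had 32.9, 32.3 and 26.3 CPM at 0.5 h of EtOH, 32.3, 35.1 and 33.6 at 1 h, 28.7, 34.1 and 29.3 at 2 h, 37.8, 38.4 and 32.8 at 4 h, 48.5, 40.2 and 35.8 at 8 h, and 52.7, 55.4 and 52.5 at 20 h. It had 127, 116 and 111 CPM at 0.5 h of SDS, 109, 108 and 85.9 at 1 h, 102, 114 and 94.8 at 2 h, 82, 78.8 and 73.1 at 4 h, 78.7, 75 and 66.4 at 8 h, and 89.1, 86.7 and 87.9 at 20 h. The control had 42.7, 50.7 and 43 CPM. Every SDS library lay above every control, and every EtOH library from 0.5 to 4 h below. CYT1 rose by 1.38 (SE 0.11, adjusted p = 1.01e-12) at 0.5 h of SDS (edgeR) and was still up by 0.95 at 20 h. In EtOH it fell by 0.57, 0.43, 0.57 and 0.32 at 0.5, 1, 2 and 4 h. The 1 h call was lost without control replicate 2 (-0.35), and the 4 h call in 4 settings (-0.19 to -0.29).
COR1 (YBL045C) had the smallest maximal change of the complex. It had 110, 112 and 106 CPM at 0.5 h of EtOH, 118, 113 and 111 at 1 h, 120, 118 and 108 at 2 h, 99.4, 95.2 and 113 at 4 h, 89.7, 82.2 and 93.6 at 8 h, and 133, 132 and 199 at 20 h. It had 214, 206 and 199 CPM at 0.5 h of SDS, 209, 200 and 202 at 1 h, 193, 215 and 194 at 2 h, 189, 181 and 182 at 4 h, 166, 158 and 144 at 8 h, and 190, 206 and 191 at 20 h. The control had 128, 134 and 121 CPM. All SDS libraries again lay above the controls, by log2 changes of 0.69, 0.67, 0.65, 0.53, 0.29 and 0.62. The 8 h call was lost without any of 4 single libraries (0.25 to 0.29). In EtOH COR1 fell by 0.32 at 4 h and 0.53 at 8 h, calls lost with library totals alone (-0.19 at each time), and rose by 0.28 at 20 h. The 4 h call was also lost without any of 3 single libraries (-0.26 to -0.29), and the 20 h call without control replicate 3 (0.24), without EtOH 20 h replicate 3 (0.06) and in a fit of those 6 libraries alone (0.32).

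In EtOH the bc1 genes split. QCR2 fell at the first 5 times, by 0.36, 0.39, 0.39, 0.66 and 0.44, and RIP1 fell at 4 and 8 h by 0.59 and 0.68. QCR6 rose at 2, 4, 8 and 20 h by 0.48, 0.54, 0.72 and 0.49, and QCR10 at 8 and 20 h by 0.63 and 0.70. The early calls were near the threshold. QCR2 lost its 0.5 h call without any of 4 single libraries (-0.32 to -0.36), its 1 h call without any of 3 (-0.33 to -0.37) and its 2 h call without EtOH replicate 3 (-0.33). QCR6 lost its 2 h call without control replicate 1 or 3 or EtOH replicate 3 (0.39 to 0.44). With library totals alone the 8 h falls of QCR2 (-0.09) and RIP1 (-0.33) did not pass, and in a fit of the 6 libraries alone neither did that of QCR2 (-0.42) or the 20 h rise of QCR6 (0.53). At 20 h of EtOH 5 of the 9 rose and 0 fell, and replicate 3 stood apart. The summed level of the complex was 912, 931 and 1500 CPM per kb in these libraries, against 836 to 929 in the control. Without replicate 3, 2 rose (QCR9, QCR10) and 2 fell (RIP1 at -0.37, QCR8 at -0.50), and COR1 (0.06), QCR6 (0.17) and QCR7 (0.14) no longer passed.

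Cytochrome oxidase, the terminal enzyme, also rose in SDS. Of its 9 nuclear genes 9, 8, 8, 8, 8 and 9 rose at the 6 times and 0 fell. The summed level of its genes was 1640 to 1650 CPM per kb at 0.5 h of SDS and 1610 to 1820 at 20 h, against 1030 to 1050 in the control, with no overlap at any SDS time. COX4, COX6, COX7, COX8, COX9 and COX13 rose at every SDS time, COX12 at 5 times and COX5A at 3. COX4, for a zinc-binding subunit, rose most at 20 h (0.94, SE 0.12, adjusted p = 1.65e-07, edgeR), and COX6 at 0.5 h (0.92, SE 0.09, adjusted p = 1.25e-10, edgeR).
In EtOH single genes moved in both directions. COX9 rose at 1, 2, 4, 8 and 20 h by 0.29, 0.29, 0.59, 0.55 and 0.37 and COX7 at 4, 8 and 20 h by 0.51, 0.60 and 0.75. COX6 fell at 4, 8 and 20 h by 0.27, 0.51 and 0.58. The 1 h rise of COX9 did not pass under DESeq2 (0.29), RLE size factors, library totals alone or no low-count filter (0.28 each), in a fit of the 6 libraries alone (0.29), or without any of 5 single libraries (0.20 to 0.31). Its 2 h rise was lost without any of 5 single libraries (0.25 to 0.31). COX6 did not pass with library totals alone at 4 h (-0.15) or 8 h (-0.16), and without any of 3 single libraries not at 4 h (-0.23 to -0.26). The summed level of the oxidase genes was above all controls at every EtOH time too, by ratios of the means of 1.03, 1.09, 1.1, 1.13, 1.13 and 1.17, against 1.59 at 0.5 h of SDS.

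**Figure D3:**
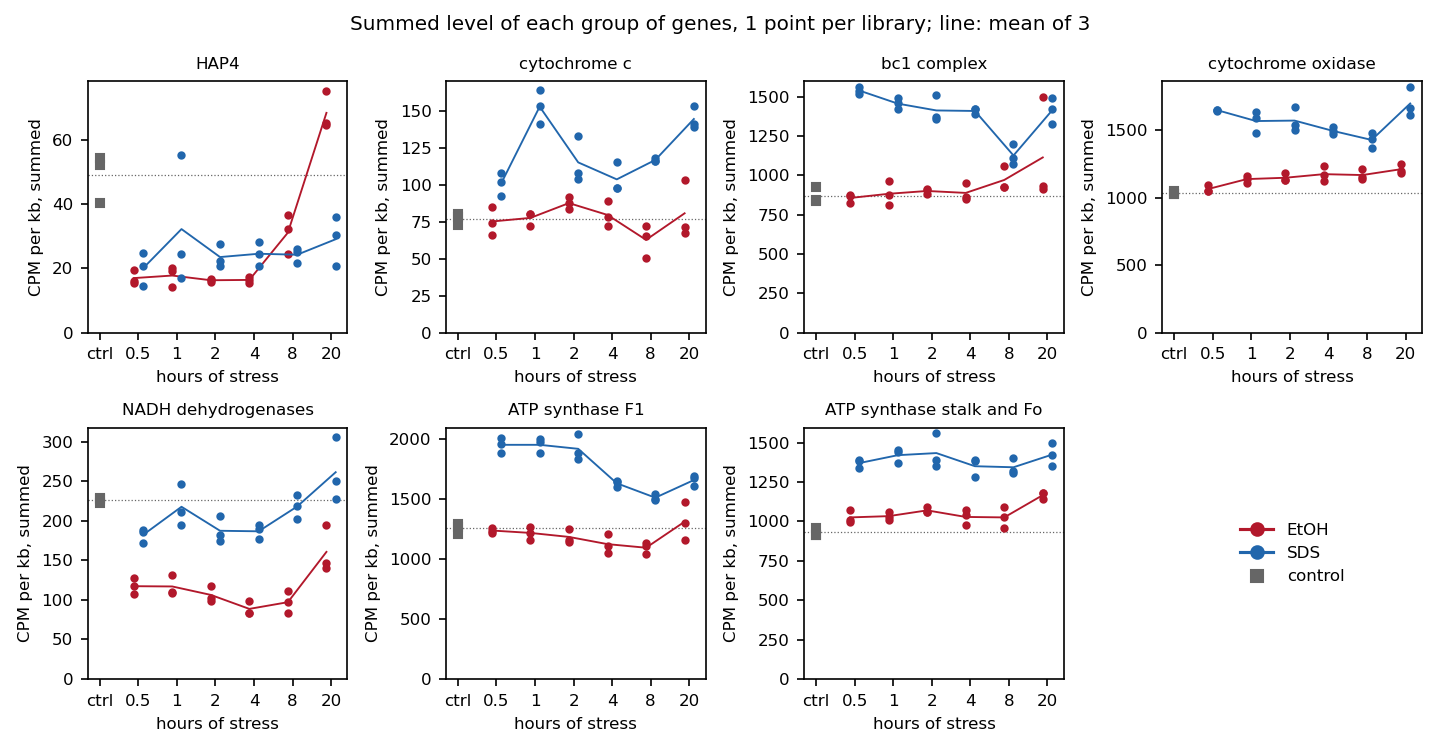
Summed level of the genes of each complex in every library, in CPM per kb of coding sequence, with the control at the left and the times of EtOH and SDS after it. The bc1, oxidase and ATP synthase sums of SDS lie above all controls at every time, and the oxidase sums of EtOH lie above them too, by smaller ratios (1.03 to 1.17). Replicate 3 of EtOH 20 h stands apart in the bc1 panel at 1500 CPM per kb.

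COX5A and COX5B encode alternative forms of subunit V, with COX5A the aerobic form and COX5B the form induced at low oxygen. COX5B (YIL111W) had the largest SDS rise of all 36. It had 19, 17.9 and 15.3 CPM at 0.5 h of EtOH, 24.9, 23.5 and 17.3 at 1 h, 25.6, 27.1 and 19.5 at 2 h, 26, 23.1 and 22.2 at 4 h, 48.1, 42.1 and 28.1 at 8 h, and 48.2, 53 and 66.3 at 20 h. It had 87.5, 82.6 and 76.5 CPM at 0.5 h of SDS, 74, 71.2 and 66.7 at 1 h, 51.4, 60.3 and 51.2 at 2 h, 62.7, 57.1 and 53.3 at 4 h, 40.8, 37.8 and 34.8 at 8 h, and 51.9, 45.5 and 47.2 at 20 h. The control had 26, 28.9 and 22.5 CPM. All SDS libraries lay above the controls, as did those of EtOH 20 h, and all EtOH 0.5 h libraries lay below them. COX5B rose in SDS by 1.67, 1.45, 1.07, 1.16, 0.55 and 0.90 (SE 0.15; adjusted p = 1.73e-11 at 0.5 h, edgeR). In EtOH it fell at 0.5 h by 0.56, a call lost without control replicate 2 or EtOH replicate 3 (-0.48), and rose by 0.64 at 8 h and 1.11 at 20 h.
COX5A (YNL052W) changed least of the oxidase genes. It had 57, 62.1 and 55.3 CPM at 0.5 h of EtOH, 59, 58.2 and 60.3 at 1 h, 62.9, 58.4 and 54.5 at 2 h, 57, 59.3 and 54.1 at 4 h, 45.9, 50.3 and 58.3 at 8 h, and 50.4, 57.6 and 53.3 at 20 h. It had 80.5, 80.7 and 79.4 CPM at 0.5 h of SDS, 69.4, 68.7 and 63.2 at 1 h, 57.3, 68.1 and 59.8 at 2 h, 62.8, 60.3 and 53.4 at 4 h, 65.5, 70.2 and 70.9 at 8 h, and 86.3, 75.9 and 76 at 20 h. The control had 56.8, 63.8 and 55.5 CPM. Only the SDS libraries of 0.5, 8 and 20 h lay wholly outside the control range. It rose by 0.45, 0.23 and 0.43 at 0.5, 8 and 20 h of SDS and fell by 0.20 at 8 h of EtOH. The 2 calls at 8 h were lost under DESeq2 and other settings, and the EtOH one changed sign with library totals alone (0.14).
As a share of the pair by CPM per kb, COX5B made up 50.9 ± 1.5% at 0.5 h of SDS, 51.6 ± 0.343% at 1 h and 38.1 ± 0.466% at 20 h, against 30.7 ± 1.42% in the control (SD, n = 3 each). In EtOH its share was 23.3 ± 1.74% at 0.5 h, below all controls, and 43.4 ± 9.6% at 8 h and 51.1 ± 4.09% at 20 h, above all of them. Of 6 other genes known to be induced at low oxygen, 1 rose and 4 fell at 0.5 h of SDS and 0 rose and 5 fell at 4 h (medians -0.68 and -0.54). At those times 30.6% and 25.6% of all genes rose and 28.8% and 26.8% fell. TIR1, for a cell wall mannoprotein, averaged 40.9 ± 4.23 CPM at 0.5 h of SDS and 145 ± 15.5 CPM in the control, and ANB1, for a translation factor, 29.0 ± 0.519 and 64.4 ± 11.9 CPM. In EtOH 0 of the 6 rose at any time and up to 4 fell.

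The NADH dehydrogenase genes fell in EtOH. NDI1 oxidises matrix NADH, and NDE1 and NDE2 oxidise cytosolic NADH at the outer face of the membrane. All 3 fell at 0.5 and 1 h of EtOH, and NDI1 and NDE1 at 2, 4 and 8 h. Their summed level was 117 ± 10.4 CPM per kb at 0.5 h of EtOH, 88.7 ± 9.05 at 4 h and 161 ± 30.1 at 20 h, against 226 ± 3.84 in the control, with no overlap at any EtOH time. In SDS the sum also lay below all controls at 0.5, 2 and 4 h, by ratios of the means of 0.804, 0.827 and 0.823. It overlapped them at 1, 8 and 20 h of SDS.
NDE1 (YMR145C), the main external enzyme, fell at all 6 EtOH times. It had 116, 133 and 159 CPM at 0.5 h of EtOH, 113, 125 and 160 at 1 h, 112, 107 and 141 at 2 h, 84, 84.8 and 113 at 4 h, 120, 106 and 84.2 at 8 h, and 175, 173 and 162 at 20 h. It had 123, 136 and 118 CPM at 0.5 h of SDS, 264, 235 and 210 at 1 h, 184, 224 and 190 at 2 h, 202, 219 and 187 at 4 h, 256, 314 and 293 at 8 h, and 292, 394 and 281 at 20 h. The control had 262, 262 and 272 CPM. Every EtOH library lay below every control, as did every SDS 0.5 h, 2 h and 4 h library, while those of 1 and 8 h overlapped the control and those of 20 h lay above it. Its EtOH changes were -0.97, -1.0, -1.14, -1.50, -1.36 and -0.64 (adjusted p = 1.46e-08 at 4 h, edgeR). In SDS it fell by 1.07 at 0.5 h, and the falls of 0.41 at 2 h and 0.39 at 4 h were lost with library totals alone and without any of 3 single libraries each (-0.19 to -0.39).
NDE2 (YDL085W) rose early in SDS. It had 3.72, 5 and 3.87 CPM at 0.5 h of EtOH, 5.66, 5.88 and 2.08 at 1 h, 6.1, 5.83 and 4.02 at 2 h, 7.3, 6.67 and 5.03 at 4 h, 12.9, 10.6 and 7.78 at 8 h, and 8.38, 10.4 and 15.2 at 20 h. It had 23.6, 21.9 and 22.6 CPM at 0.5 h of SDS, 16.5, 17.2 and 16.9 at 1 h, 13.1, 17.7 and 15.9 at 2 h, 17.5, 20.6 and 25.6 at 4 h, 10.2, 10.2 and 10.9 at 8 h, and 8.77, 8.66 and 8.31 at 20 h. The control had 6.75, 7.71 and 10.7 CPM. SDS libraries of 0.5 to 4 h all lay above the controls, and those of 8 and 20 h overlapped them. NDE2 rose by 1.44, 1.02, 0.90 and 1.34 at 0.5, 1, 2 and 4 h of SDS and fell by 0.98 and 0.86 at 0.5 and 1 h of EtOH. The EtOH calls were lost without control replicate 3 (-0.77 and -0.65), and the 1 h one also without EtOH replicate 3 (-0.53).
NDI1 (YML120C) had 55.5, 53.9 and 47.6 CPM at 0.5 h of EtOH, 58.8, 48.9 and 54.3 at 1 h, 49.6, 49.4 and 47.1 at 2 h, 45.1, 44.5 and 44.5 at 4 h, 49.8, 43.7 and 43.3 at 8 h, and 47.2, 58.7 and 138 at 20 h. It had 155, 142 and 135 CPM at 0.5 h of SDS, 124, 93.9 and 92.3 at 1 h, 87, 95.7 and 92.1 at 2 h, 89.3, 78.2 and 76.9 at 4 h, 67.5, 62.7 and 58.9 at 8 h, and 110, 104 and 86.8 at 20 h. The control had 104.8, 106 and 83 CPM. The first 5 EtOH times lay wholly below the control, and at 20 h replicate 3 lay above it. NDI1 fell by 0.91, 0.86, 1.01, 1.13 and 1.10 at these 5 times. At 20 h the value was -0.27 and did not pass, and without replicate 3 it fell by 0.89. In SDS it rose by 0.55 at 0.5 h and fell by 0.64 at 8 h. Both calls were lost without some single libraries (0.45 and 0.50 at 0.5 h, -0.57 and -0.59 at 8 h).
NDE2 made up 15.7 ± 1.31% of the NDE1 and NDE2 pair by CPM per kb at 0.5 h of SDS and 9.78 ± 2.24% at 4 h, against 3.13 ± 0.673% in the control, and overlapped the control at 8 and 20 h. In EtOH its share was above all controls from 4 h on, at 6.68 ± 2.03%, 9.33 ± 0.643% and 6.44 ± 2.13% at 4, 8 and 20 h.

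**Figure D4:**
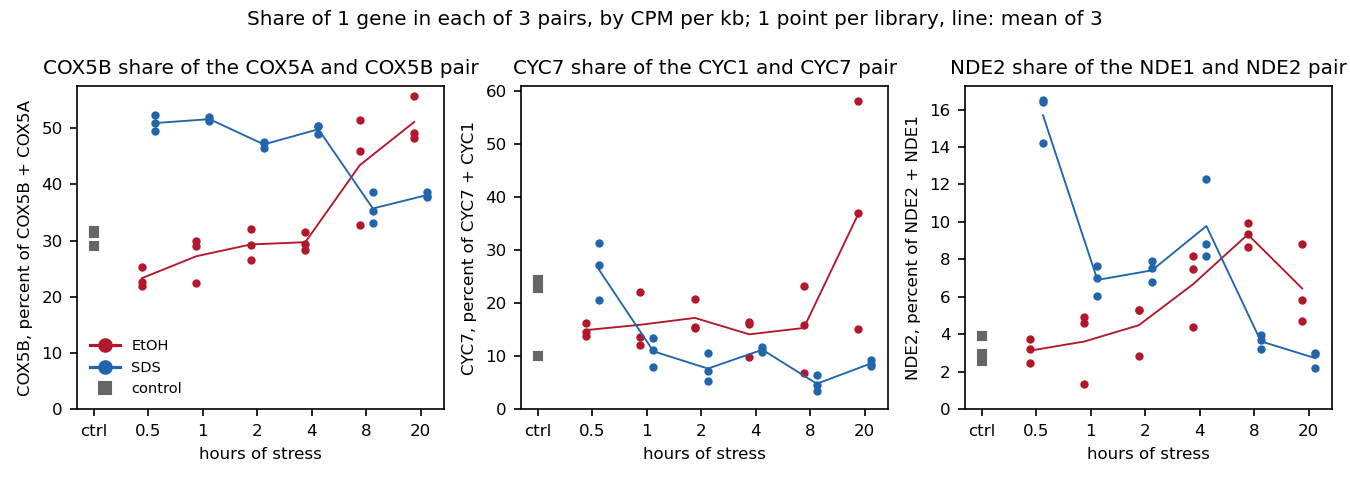
Share of the minor isoform gene in its pair (percent of summed CPM per kb, per library) for COX5B, CYC7 and NDE2, with the control at the left and the times of each stress after it. COX5B made up 30.7% in the control and about the same as COX5A, 50.9%, at 0.5 h of SDS.

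ATP synthase rose in SDS in both of its parts. Of the 5 F1 genes 5, 5, 5, 3, 3 and 4 rose at the 6 times, and of the 7 stalk and membrane genes 6, 7, 7, 7, 7 and 7, with 0 falls. ATP15 (YPL271W), for the small F1 subunit epsilon, changed most. It had 46.6, 43.9 and 39.3 CPM at 0.5 h of EtOH, 50.5, 37.2 and 44.5 at 1 h, 39.2, 47.4 and 47.1 at 2 h, 50.4, 51.8 and 54.1 at 4 h, 44.5, 46.3 and 68.9 at 8 h, and 53.2, 40.3 and 48.1 at 20 h. It had 90, 96.5 and 86.6 CPM at 0.5 h of SDS, 98.7, 89.7 and 105.2 at 1 h, 74.8, 87 and 82.8 at 2 h, 73.4, 77.8 and 75.1 at 4 h, 65.1, 52.2 and 68.8 at 8 h, and 64.8, 64.7 and 60.2 at 20 h. The control had 34.2, 41.6 and 43 CPM. Every SDS library lay above every control, and above every EtOH library of the same time except at 8 h, when EtOH replicate 3 was as high as the highest SDS library. ATP15 rose by 1.31 (SE 0.13, adjusted p = 8.69e-10) at 1 h of SDS (edgeR) and by 0.68 at 20 h. In EtOH it rose by 0.40 at 4 h and 0.39 at 8 h, calls lost without control replicate 1 (0.30 at each time) or EtOH replicate 3 of that time (0.37 and 0.20).
ATP1 (YBL099W), for the alpha subunit, changed least. It had 344, 353 and 376 CPM at 0.5 h of EtOH, 340, 342 and 377 at 1 h, 338, 318 and 362 at 2 h, 302, 316 and 377 at 4 h, 349, 323 and 318 at 8 h, and 456, 430 and 331 at 20 h. It had 591, 569 and 570 CPM at 0.5 h of SDS, 549, 502 and 526 at 1 h, 544, 566 and 534 at 2 h, 470, 420 and 416 at 4 h, 401, 421 and 385 at 8 h, and 458, 484 and 456 at 20 h. The control had 405, 386 and 400 CPM. The SDS libraries lay above the controls at all times but 8 h, when they overlapped. ATP1 rose by 0.54, 0.40, 0.46 and 0.23 at 0.5, 1, 2 and 20 h of SDS, the last call being lost under DESeq2 and without any 1 of the 6 libraries (0.20 to 0.25), and ATP2, for the beta subunit, by 0.43, 0.34 and 0.34 at 0.5, 1 and 2 h.
In EtOH the F1 genes ATP1 and ATP2 fell at 4 and 8 h, and of the 7 stalk and membrane genes 0, 1, 4, 2, 3 and 5 rose at the 6 times and 1 fell, at 8 h. The summed level of these 7 was above all controls at every EtOH time but 8 h, by ratios of 1.1, 1.11, 1.15, 1.11 and 1.25 at 0.5, 1, 2, 4 and 20 h. ATP1 fell by 0.26 and 0.27 and ATP2 by 0.46 and 0.56 at 4 and 8 h, although ATP1 changed sign at 8 h with library totals alone (0.08). The 8 h fall of ATP1 was also lost without the low-count filter (-0.22), and its 4 h fall with library totals alone (-0.13), without that filter (-0.23) and without any of 4 single libraries (-0.20 to -0.25). ATP17 rose at the last 5 EtOH times, by 0.28, 0.33, 0.34, 0.40 and 0.68, and ATP18 at the last 4, by 0.41, 0.61, 0.64 and 0.62. The 1 h rise of ATP17 was lost with library totals alone (0.26), without the filter (0.27) and without any of 5 single libraries (0.21 to 0.29), and its 2 h rise without EtOH replicate 1 (0.27). The 2 h rise of ATP18 was lost without any of 4 single libraries (0.30 to 0.45). ATP3, for the rotating gamma subunit, rose by up to 0.94 in SDS (2 h) and fell by 0.42 at 8 h of EtOH, a call lost with library totals alone (-0.07). ATP16 rose at all SDS times, by 0.38 to 0.62, and passed at no EtOH time. ATP4, ATP5, ATP7 and ATP14 rose at all 6 SDS times and ATP20 at the last 5, by 0.30 to 0.65.

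Compared directly at the same time, EtOH libraries were lower than SDS libraries in most of these genes. At 0.5 h, 0 genes were higher and 30 lower in EtOH than in SDS, with 31.0% of all genes tested higher and 33.4% lower. The counts were 0 and 31 at 1 h (27.8% and 27.5%), 0 and 30 at 2 h (23.9% and 26.3%), 0 and 27 at 4 h (25.2% and 25.9%), 1 and 23 at 8 h (20.5% and 25.5%), and 2 and 23 at 20 h (29.8% and 29.1%). In order of time 9, 8, 5, 6, 2 and 2 of the 36 were at least 2-fold lower in EtOH, while 11.6%, 7.47%, 6.93%, 7.10%, 3.33% and 5.20% of all genes tested were. The median EtOH minus SDS difference was -0.55, -0.57, -0.58, -0.54, -0.42 and -0.34 at the 6 times. The largest early differences were NDE2 (-2.42), COX5B (-2.24) and CYT1 (-1.95) at 0.5 h. Of the 36, 16 were lower in EtOH at all 6 times, among them CYT1, RIP1, COR1 and QCR2 of the bc1 complex, COX4, COX6 and COX8 of the oxidase, and ATP2, ATP3, ATP16 and ATP20 of ATP synthase.
HAP4 differed from them. It was lower in EtOH at 1 h alone (-0.84), and without replicate 1 of SDS 1 h that difference was -0.22 and did not pass. It was higher in EtOH at 20 h (1.23, adjusted p = 8.1e-05, edgeR). QCR6 was higher in EtOH at 8 h (0.54), and CYC7 at 20 h (1.37, or 0.55 and not passing without EtOH replicate 3). The differences at 8 and 20 h depend on scaling. With library totals alone the median of all genes shifted to 0.32 and 0.31, (-0.22 and -0.14 at 0.5 and 1 h), 6 genes were higher and 12 lower at 8 h, and 6 were higher and 13 lower at 20 h.

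**Figure D5:**
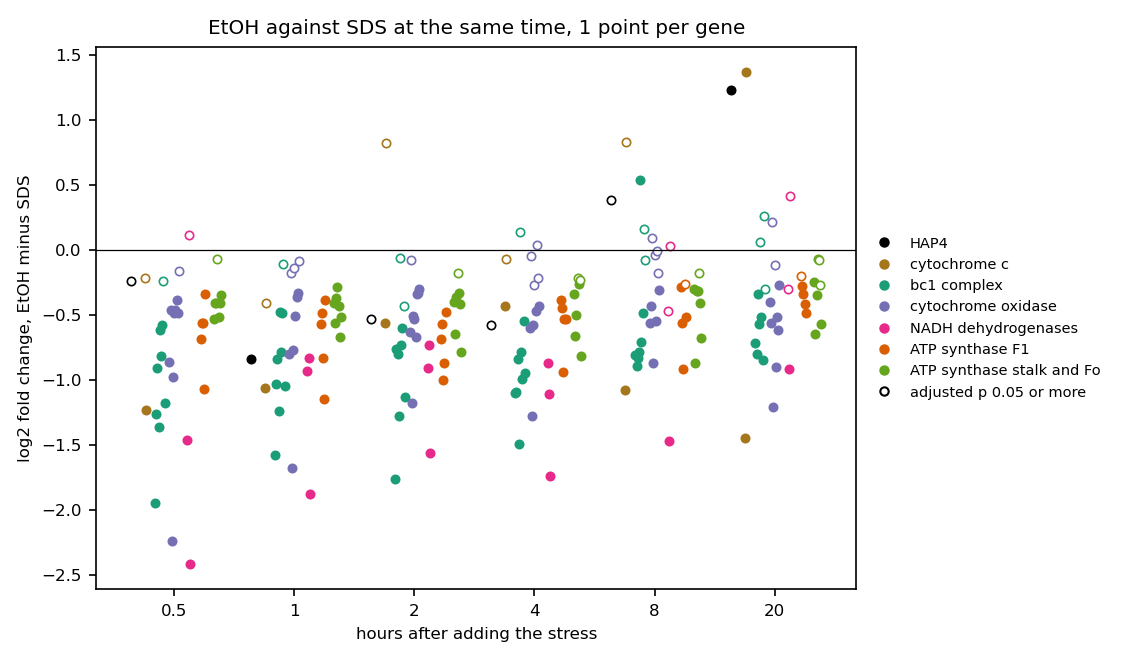
EtOH minus SDS log2 difference of each gene at the 6 matched times, with filled points where the adjusted p was under 0.05 and open points elsewhere. From 0.5 to 4 h no gene passed the test as higher in EtOH, and 27 to 31 passed as lower. At 20 h HAP4 was higher by 1.23.

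Some of the 36 genes also varied with time within each stress. In SDS, 22 of the 36 varied among the 6 times by the F test, a smaller share than that of all genes tested (73.3%). In EtOH 26 did, a share near that of all genes tested (69.7%). Between 0.5 and 4 h of SDS 2 rose and 11 fell (29.2% and 28.7% of all genes), and between 4 and 20 h 7 rose and 2 fell (21.3% and 18.8%). With library totals alone the split between 4 and 20 h of SDS was 1 rise and 7 falls, with the median of all genes at -0.22. NDI1 fell by 0.82, COX6 by 0.61 and CYT1 by 0.60 over the earlier SDS interval, and NDE1 rose by 0.69 in it and by 0.67 in the later one. In EtOH 1 rose and 3 fell between 0.5 and 4 h (7.38% and 9.97%), against 8 rises and 0 falls with library totals alone. Without EtOH 0.5 h replicate 3 or EtOH 4 h replicate 1, 1 gene passed over that interval, and without EtOH 4 h replicate 2, 2 did. Between 4 and 20 h of EtOH 22 rose and 4 fell (28.3% and 22.9%). HAP4 rose most over the late EtOH interval (2.06, SE 0.26, adjusted p = 2.19e-07, edgeR), followed by CYC7, COX5B (1.23), NDI1, NDE1 and NDE2. Without replicate 3 of EtOH 20 h, 16 rose and 4 fell over that interval, bc1 rises numbered 3 in place of 7, and CYC7 (0.73), NDI1 (0.25) and NDE2 (0.57) no longer passed. In a fit of the 6 libraries of that interval alone 6 rose and 0 fell.

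Genes that supply or assemble the chain moved with it in part. Complex II, which feeds electrons from succinate, had 4 of 4 genes up at 0.5, 1 and 20 h of SDS, 3 at 2 and 4 h, and 2 up with 1 down at 8 h. The shares of all genes tested given above for each time are the background of these and the later list counts: at 0.5 h of SDS 30.6% rose and 28.8% fell, and at 0.5 h of EtOH 6.52% and 7.69%. The median of the list was 1.13 at 0.5 h of SDS and -0.71 at 0.5 h of EtOH. SDH4 averaged 98.1 ± 6.84 CPM at 0.5 h of SDS and 40.7 ± 7.45 CPM in the control (log2 change 1.26, SE 0.18), and SDH2 90.0 ± 6.92 and 37.8 ± 4.58 CPM (1.25, SE 0.20). In EtOH 0 of the 4 rose and 2 to 3 fell at every time, and all 4 were lower in EtOH than in SDS at each of the 6 times. At 20 h of EtOH, where 2 fell, 1 fell without replicate 1 or without replicate 2, and 3 fell without replicate 3. The other electron donors CYB2, DLD1 and GUT2 all rose at 4 h of SDS (25.6% of all genes) and all fell at 0.5, 1 and 2 h of EtOH (median 0.71 at 4 h of SDS and -0.57 at 0.5 h of EtOH). DLD1, the D-lactate dehydrogenase gene, averaged 692 ± 30.9 CPM at 4 h of SDS and 126 ± 3.65 CPM in the control (2.45, SE 0.08), and CYB2, the L-lactate dehydrogenase gene, 26.8 ± 2.12 and 16.4 ± 1.32 CPM (0.71, SE 0.14).

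Of 22 oxidase assembly genes 14 rose and 0 fell at 0.5 h of SDS (all genes 30.6% and 28.8%) and 1 rose and 5 fell at 8 h (19.5% and 16.9%). In EtOH 1 rose and 1 fell at 0.5 h (6.52% and 7.69%) and 14 rose and 0 fell at 20 h (30.3% and 28.5%). The 20 h count depends on replicate 3, without which 9 rose and 0 fell and the median was 0.24. The list's median was 0.45 at 0.5 h of SDS and 0.36 at 20 h of EtOH. At 0.5 h 14 of them were lower in EtOH than in SDS and 1 higher (all genes 33.4% and 31.0%). SCO2, a relative of the copper-delivery gene SCO1, averaged 31.3 ± 1.71 CPM in EtOH and 69.7 ± 2.51 CPM in SDS then (-1.15, SE 0.12), and SHY1 21.4 ± 3.25 and 45.5 ± 2.12 CPM (-1.08, SE 0.12). From 4 h on the direction of this list was the opposite. Then 8 of the 22 were higher and 1 lower in EtOH at 4 h (all genes 25.2% and 25.9%). The counts were 13 and 0 at 8 h (20.5% and 25.5%, median 0.42) and 7 and 1 at 20 h (29.8% and 29.1%). The 20 h count was not refitted without replicate 3. Of 9 bc1 assembly genes 5 rose and 1 fell at 0.5 h of SDS (median 0.42). CBP4 averaged 35.9 ± 2.42 CPM there and 18.5 ± 1.43 CPM in the control (0.96, SE 0.13), and CBS1 8.84 ± 0.724 and 6.19 ± 1.22 CPM (0.51, SE 0.20). At 1, 2, 4, 8 and 20 h of SDS 3, 1, 0, 1 and 2 of the 9 rose and 1, 0, 1, 2 and 1 fell. In EtOH 0 to 2 of the 9 rose and 0 to 1 fell.
Of 13 genes for ATP synthase assembly and inhibition 7 rose and 0 fell at 0.5 h of SDS (median 0.45, all genes 30.6% and 28.8%). At 20 h of EtOH 9 rose and 1 fell (median 0.45, all genes 30.3% and 28.5%). AEP3, needed for the mitochondrial ATP synthase transcripts, had 21.5, 44.3 and 333 CPM at 20 h of EtOH, against 15.2, 18.8 and 13.1 CPM in the control. All 3 EtOH libraries lay above the controls, and replicate 3 stood far above the other two. Its log2 change of 3.08 (SE 0.53) was 1.07 (SE 0.30, adjusted p = 0.00339, edgeR) without that replicate. INH1, the ATPase inhibitor gene, averaged 26.7 ± 5.20 CPM at 20 h of EtOH and 8.30 ± 0.873 CPM in the control (1.68, SE 0.21, or 1.51, SE 0.23, without replicate 3). The list's count at 20 h of EtOH was 9 rises and 1 fall without replicate 3 too. Against SDS at the same time, 0 of the 13 were higher and 8 lower in EtOH at 0.5 h (all genes 31.0% and 33.4%). At 8 h 6 were higher and 1 lower (20.5% and 25.5%), and at 20 h 7 and 3 (29.8% and 29.1%). The 20 h count against SDS was not refitted without replicate 3. INH1, STF1 and STF2, singled out from this list after their values were seen, rose by 1.71, 2.71 and 2.44 at 0.5 h of SDS, and STF2 fell by 1.29 at 0.5 h of EtOH. Ubiquinone synthesis had 8 of 10 genes up and 0 down at 0.5 h of SDS (median 0.39), led by COQ6 (253 ± 2.92 CPM against 88.9 ± 7.13 CPM in the control) and COQ4 (115 ± 4.20 against 48.4 ± 9.64 CPM), and 0 to 3 up and 0 to 2 down in EtOH. At 1, 2, 4, 8 and 20 h of SDS 6, 5, 2, 0 and 3 of the 10 were up and 0, 0, 2, 2 and 0 down.
Heme and cytochrome maturation genes were mixed. At 20 h of EtOH 3 of 10 were up and 5 down (median -0.18, all genes 30.3% and 28.5%). At 0.5 h of SDS 5 were up and 2 down (median 0.24, all genes 30.6% and 28.8%). HEM15, ferrochelatase, averaged 55.1 ± 2.25 CPM at 20 h of EtOH and 120 ± 4.21 CPM in the control (-1.12, SE 0.07), and CYC3, which attaches heme to cytochrome c, 127 ± 2.60 and 72.7 ± 7.36 CPM (0.81, SE 0.11). Without replicate 3 the heme list had 3 rises and 4 falls, HEM15 fell by 1.10 and CYC3 rose by 0.82. Of the 4 adenine nucleotide and phosphate carrier genes 1 was higher and 3 lower in EtOH than in SDS at 4 h (all genes 25.2% and 25.9%; median -0.49). AAC3 averaged 54.5 ± 8.22 CPM in EtOH and 31.7 ± 3.27 CPM in SDS at that time (0.78, SE 0.13), and AAC1 12 ± 1.19 and 19.9 ± 2.50 CPM (-0.73, SE 0.20). The a-type mating genes mark the strain and not respiration. All 3 fell at every SDS time and at 20 h of EtOH, with or without replicate 3. Earlier in EtOH 0 passed at 0.5 and 1 h, 1 fell at 2 h, 2 rose and 1 fell at 4 h, and 1 fell at 8 h. Of the 2 alpha-type genes tested up to 2 rose. The part of the mating genes in the results above was not tested.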

How the data were processed

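The authors deposited raw counts per gene for the 39 BY4741 libraries, as whole numbers with no normalization. The submitters' processing notes name featureCounts 2.0.1, STAR 2.7.8, Trimmomatic 0.39, FastQC 0.11.9 and the genome build R64. Strandedness and the treatment of reads matching several places were not given. In the RefSeq R64 annotation none of the 36 genes overlaps another gene, and none holds a 50-base stretch repeated in the genome. Overlap with features of the count table outside that annotation was not checked.

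Groups were taken from the labels. edgeR 4.0.16 (R 4.3.3) was fitted to 6101 features left by filterByExpr, with TMM scaling, 1 coefficient per group and 26 residual degrees of freedom, using the quasi-likelihood test with Benjamini-Hochberg adjustment at 0.05 over all features tested. The EtOH and SDS comparisons share their 3 control libraries. Changes among times were tested with an F test. SE is the log2 change divided by the root of F. Alternatives were DESeq2 1.42.0, RLE size factors, library totals alone, no low-count filter, only the compared libraries, a replicate block and leaving out each library. The fit was tested on simulated counts.

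The genes described in every library are HAP4, the isoform pairs, the NADH dehydrogenases and, for each of bc1, oxidase and ATP synthase, the genes with the largest and smallest maximal change. For lists, up to 2 genes with the largest change where most passed are named. The members and lists were chosen with earlier results of these data known. Motifs were searched in 500 bases before each start codon. A floor of 3 counts covers counting error only. The labels call replicates biological.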

Additional observations from a re-analysis of the deposited data

How the results depend on the processing

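Across alternatives most calls on single genes kept their side of the threshold and their direction. Under DESeq2 479 calls held and 7 were lost, under RLE size factors 479 and 7, without the low-count filter 474 and 12, with only the compared libraries 435 and 51, and with library totals alone 432 and 44, with 10 reversed. Between stress and control, and between EtOH and SDS at the same time, replicate numbers showed little pairing (r of deviations -0.176 to 0.198, over 0.1 in 17 of 54 pairs). Pairing of replicate numbers between times of the same stress was not examined. The tests among times treat those libraries as independent. With a replicate block 483 calls held, 3 were lost and 7 gained. The scaling with library totals alone and the counts per complex and list without EtOH 20 h replicate 3 were chosen after seeing the data.

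Counting only changes of at least 2-fold, 7, 6, 5, 3, 3 and 1 genes passed at the 6 SDS times, 1, 2, 3, 3, 2 and 2 at the 6 EtOH times, and 9, 8, 5, 6, 2 and 4 between EtOH and SDS. For the intervals 1 passed in SDS between 0.5 and 4 h, 1 between 4 and 20 h, and in EtOH 0 and 3. With only the compared libraries 11 passed at EtOH 0.5 h, 12 at EtOH 20 h, 13 between EtOH and SDS at 20 h, 10 between 0.5 and 4 h of EtOH and 6 between 4 and 20 h. With library totals alone 8 passed between 0.5 and 4 h of EtOH. With those totals the calls on COX5A (0.14) and ATP1 (0.08) were reversed at EtOH 8 h, as were COX13 (0.03), ATP1 (0.05), ATP4 (0.04), ATP7 (0.02) and ATP14 (0.02) between EtOH and SDS at 8 h and COX13 (0.01), ATP2 (0) and ATP4 (0.03) at 20 h. ATP16 at EtOH 8 h (-0.09), no call before, passed as a rise (0.26). The cause was not tested.

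Leaving out 1 library gave 4 to 7 genes at EtOH 1 h, 6 to 8 at EtOH 2 h, and 1 to 5 between 0.5 and 4 h of EtOH. CYC7 and NDE2 had the fewest counts, so their changes are the least precise.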
